A study of Mus musculus with 2 samples.

Results

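The keratin genes and the genes of keratin-associated proteins were followed through the chromosome domains of immediate neuronal precursors, cells of the olfactory epithelium that do not build hair or skin. Members were all protein-coding genes named Krt or Krtap followed by a digit, 110 of 21755 protein-coding genes on chromosomes 1 to 19 and X. They were 53 keratin genes and 57 genes of keratin-associated proteins. Chromosome 11 held 50 of them, chromosome 15 held 26, chromosome 16 held 24, chromosome 7 held 5, chromosome 10 held 3 and chromosome 1 held 2.

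The cells were primary precursors from FVB/NTac pups, of mixed sex and untreated, sorted by fluorescence from the olfactory epithelium, in a single group of 2 biological replicates of 2200000 and 2100000 cells. The mice carried Ngn1-GFP, a reporter of the proneural gene Neurog1, and the sorting protocol speaks of immature olfactory sensory neurons where the sample labels say precursors. In situ Hi-C records which stretches of DNA touch: chromatin fixed in 1% formaldehyde is cut inside the nucleus, here by DpnII, and neighbouring ends are joined and sequenced. The list analysed holds 7841 domain boundaries, positions across which contacts are depleted, each a 5 kb interval with a score from the authors. The replicates were merged before calling. The spread between them cannot be given, the sequencing depth is unknown, and no test between samples was possible. The sorted cells could not be checked against their markers, since expression was not analysed here.

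Keratins are the intermediate filament proteins of epithelia. A filament pairs a type I with a type II chain, and apart from the type I gene Krt18 the type I genes lie together on one mouse chromosome and the type II genes on another. Keratin-associated proteins embed the hair keratins, and they fall into sulfur-rich families and families rich in glycine and tyrosine. In the olfactory epithelium Krt5 and Krt14 are known from the horizontal basal cells and Krt8 and Krt18 from the sustentacular cells, while neurons use other filament proteins.

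Members that lay at most 500 kb apart, in runs of at least 5, formed 4 arrays with 105 of the 110 members. Boundaries fell inside every one of the arrays. There were 12 in all, 6 strong (score of at least 0.5) and 6 weak. Over the whole list, 52.8% of boundaries were strong. The median score inside the arrays was 0.399, against 0.533 over the list. The 95% interval of the former, taken from the ranked scores, was 0.219 to 0.845 and included the list's median. The 8 boundaries that enclosed the arrays had a median score of 0.663, and 4 of them were strong. The type II array of chromosome 15 was cut by strong boundaries alone, 3 of 3, the lowest with a score of 0.511. The 1 boundary inside the chromosome 7 array was strong too. By contrast, 4 of the 5 boundaries inside the type I array of chromosome 11 and 2 of the 3 inside that of chromosome 16 were weak. These counts are small, and a difference between arrays was not tested.

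**Figure D1:**
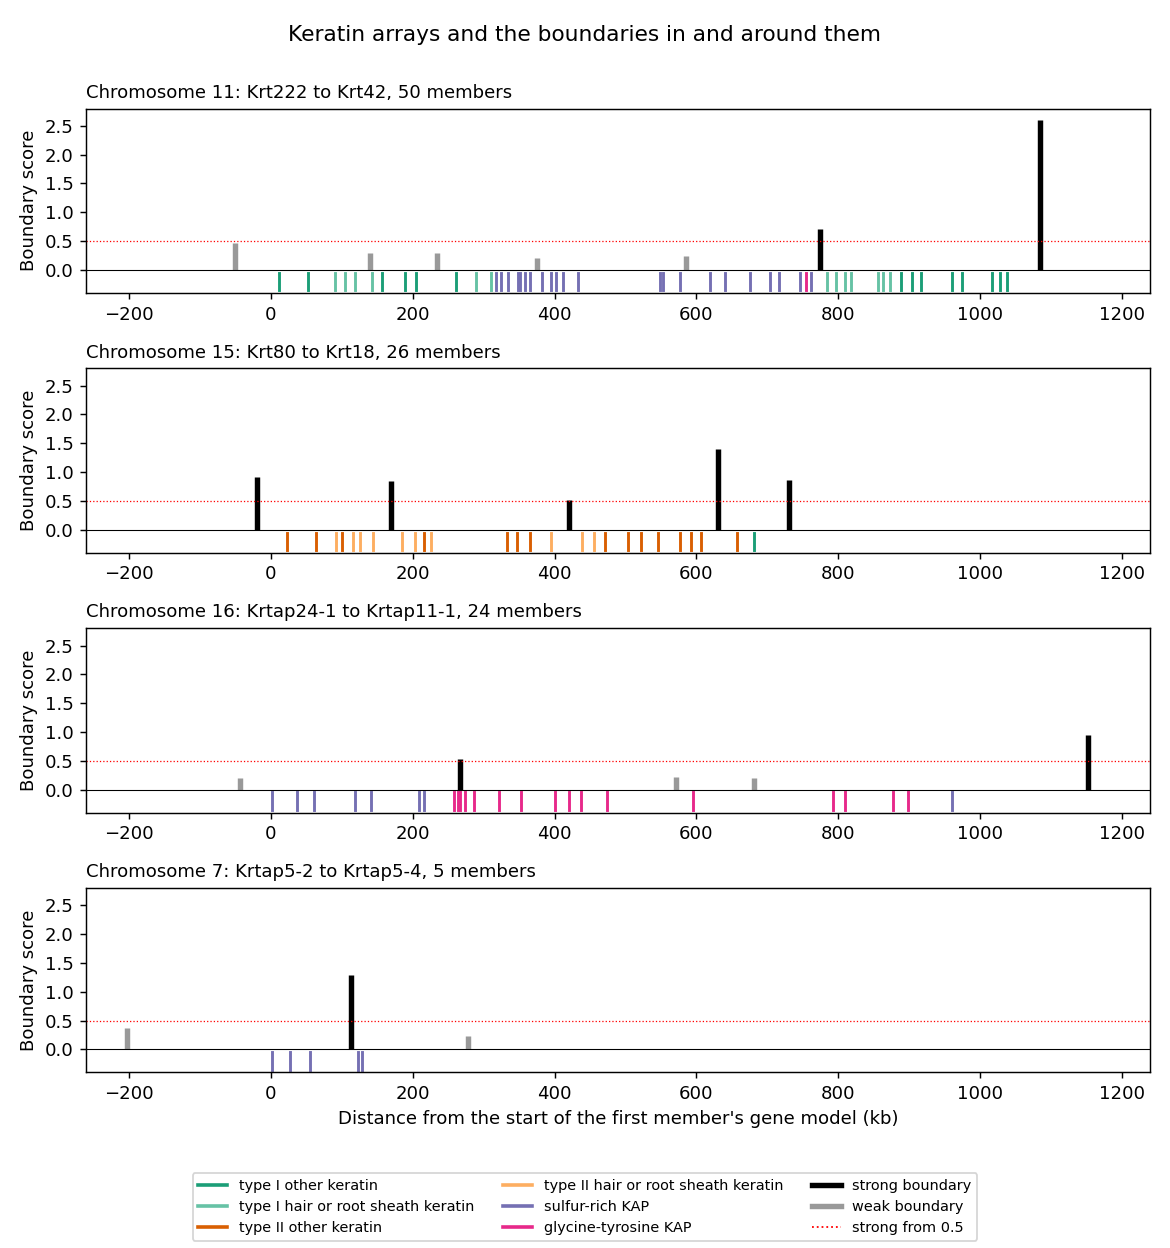
Boundary scores (vertical bars, black for strong and grey for weak, dotted line at 0.5) and member starts (coloured ticks by class, KAP standing for keratin-associated protein) against distance in kb from the first member's gene model, for the 4 arrays. All 5 bars in and around the chromosome 15 array are strong, and the highest bar, 2.61, stands beyond the right end of the chromosome 11 array.

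The chromosome 11 array ran from Krt222 to Krt42 (GRCm38, 99232761 to 100269871, 1037 kb) and held 27 keratin genes of type I around 23 genes of keratin-associated proteins. On the chromosome they were ordered as keratins, then associated proteins, then keratins again. Of its 50 members 45 were read from the minus strand. The 5 boundaries inside it divided the members over 6 domains, a domain being the stretch between the middles of neighbouring boundaries. The largest domain held 15 members, 30% of the array (Clopper-Pearson 95% interval 17.9 to 44.6%).

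The first domain held Krt222, Krt24, Krt25, Krt26 and Krt27, of which Krt25, Krt26 and Krt27 are keratins of the inner root sheath of the hair. It lay between boundaries with scores of 0.471 and 0.286. The boundary at its right end (99370001 to 99375000) overlapped an exon with untranslated sequence of Krt28, a further root sheath keratin whose start lay in the interval. Placed by its start, Krt28 fell on the far side of the interval's middle from Krt25, Krt26 and Krt27. Placed by the middle of the gene, it shared the first domain with them, since most of its body (99364872 to 99374903) lies before that point. The second domain, 95 kb long, held Krt28, Krt10, Krt12 and Krt20 and no other protein-coding gene. Krt10 is the type I keratin of differentiating epidermis, Krt12 that of the cornea and Krt20 one of the gut lining. Only 0.908% of the 7821 domains of the list were shorter.

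Krt28 is the keratin whose start fell in a boundary, so the 120 bases before its RefSeq start are shown (GRCm38.p6, chromosome 11, 99374904 to 99375023, minus strand), with a match to TATANA in capitals.
Krt28: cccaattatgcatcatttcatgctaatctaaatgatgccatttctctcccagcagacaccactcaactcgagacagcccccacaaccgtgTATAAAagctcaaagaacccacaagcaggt
The match begins 30 bases before the start.

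The keratins gave way to associated proteins without a boundary, and associated proteins to keratins at one. The third domain (140 kb, between scores of 0.285 and 0.209) held Krt23, Krt39 and Krt40 together with 7 sulfur-rich genes from Krtap3-3 to Krtap9-3, so the step from Krt40 to Krtap3-3 lay inside a domain. The start of Krt40 was 61.8 kb and that of Krtap3-3 54.1 kb from the nearest boundary. At the other end of the block, Krtap17-1 and Krt33a, the first keratin of the hair cortex, started 11 and 6.21 kb on either side of a boundary with a score of 0.713 (100005001 to 100010000). It lay outside protein-coding genes and was the only strong boundary inside the array. More widely, 19 of the 101 pairs of neighbouring members in the 4 arrays joined different classes, and 1 of the 12 boundaries, this one, fell between such a pair.

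Between these keratins the associated proteins were spread over 3 domains, cut by the weakest boundaries of the array. The scores were 0.209 (99605001 to 99610000) and 0.250 (99815001 to 99820000), and only 2.90% and 13.2% of all boundaries scored as low. The domain between them held 8 members, Krtap2-4 to Krtap4-13, and 11 other protein-coding genes, all but 63 of the 7821 domains holding fewer gene starts or as many. The next held Krtap4-16 to Krtap17-1, also 8 members. This block holds some repeated sequence. In these 2 domains 87.2% and 81.2% of sampled 50-base words were unique in the reference, against a median of 93.5% over all domains. Within 100 kb of the boundary at 99815001 the share was 77.5%, and in the 5 kb bin where Krtap4-13 starts it was 1.37%. Within 100 kb of the weaker boundary, at 99605001, the share was 94.97%. In the boundary intervals themselves the share was 93.6% at 99605001 and 95.4% at 99815001. The part of repeated sequence in the low scores was not tested.

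The last domain of the array held the hair cortex keratins and the keratins of stratified epithelia together. Its 15 members ran from Krt33a to Krt42 over 310 kb, with no other protein-coding gene and all 15 on the minus strand. Krt33a, Krt33b, Krt34, Krt31, Krt32, Krt35 and Krt36 are keratins of the hair. Krt13 is a keratin of mucosal epithelium, Krt15 and Krt14 mark basal keratinocytes, and Krt16 and Krt17 are induced in wounded skin. Krt14 started 107 kb from the nearest boundary, Krt17 54.0 kb, Krt15 126 kb and Krt19, a keratin of simple and ductal epithelia, 139 kb, the farthest of the array. No boundary separated the hair from the epidermal genes here.

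This domain ended at one of the strongest boundaries of the list. The interval (100315001 to 100320000) had a score of 2.61, the 13th of 7841, and lay 45.1 kb beyond the gene model of Krt42. It overlapped an exon with untranslated sequence of Eif1, a factor of translation initiation, whose start lay in the interval. Jup, the gene of the adhesion protein plakoglobin, started 77.8 kb beyond it. The boundary before the array was weak, with a score of 0.471, and the gene starting nearest to it was the chemokine receptor gene Ccr7, 24.9 kb away. Counting strong boundaries alone, the array had 1 boundary inside and 2 domains, and 70.0% of its members, all those up to Krtap17-1, shared a domain.

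The chromosome 15 array ran from Krt80 to Krt18 (101347444 to 102032027, 685 kb). It held 26 keratin genes and no gene of an associated protein. All are type II except Krt18, the type I partner of Krt8. The 3 boundaries inside it had scores of 0.845, 0.511 and 1.41, and those enclosing it 0.916 and 0.856, so that every boundary in and around the array was strong. None of the 26 members started within 10 kb of a boundary, against 19.5% of the protein-coding genes of chromosome 15. The closest was Krt84, at 12.8 kb, and the farthest Krt77, a keratin of the epidermis, at 99.7 kb. The median distance was 47.5 kb for the array and 48.2 kb for the protein-coding genes of the chromosome.

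The boundaries cut the type II genes into 4 domains, of 7, 8, 9 and 2 members. The largest share was 34.6% (Clopper-Pearson 95% interval 17.2 to 55.7%). The first, 190 kb long, held Krt80, Krt7 and Krt88 with the hair keratins Krt87, Krt81, Krt86 and Krt83. The boundary after it (101515001 to 101520000, score 0.845) separated Krt83 from Krt84, so hair keratins lay on either side. It overlapped an exon with untranslated sequence of the predicted gene Gm49425. The second domain (250 kb) held Krt84, Krt82, Krt90, Krt75, Krt6b, Krt6a, Krt5 and Krt71. Krt75 belongs to the companion layer of the hair, Krt6a and Krt6b are induced in wounds, and Krt5 is the partner of Krt14 in basal cells. Krt5 started 52.1 kb from the nearest boundary.

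The boundary between the second and the third domain was the weakest of the array, and it divided the inner root sheath keratins. The interval (101765001 to 101770000) scored 0.511, just above the limit for strong. Krt71 started 21.9 kb before it and Krt72, followed by Krt73, 16.5 kb after it, and all 3 are known from the inner root sheath. The third domain (210 kb) held Krt72, Krt73, Krt2, Krt1, Krt77, Krt76, Krt4, Krt79 and Krt78, with no other protein-coding gene. Krt1, the partner of Krt10 in differentiating epidermis, started 80.8 kb from the nearest boundary. With boundaries at or above the list's median score only, this boundary was dropped and 65.4% of the members shared a domain.

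Krt8 and Krt18 were set apart from all other keratins of the array. They are the pair of simple epithelia and, in this tissue, of the sustentacular cells, and they are the only type I and type II partners that are neighbours. The boundary before them (101975001 to 101980000) was the strongest inside any array, with a score of 1.41, and 92.9% of the list scored no higher. It lay outside protein-coding genes. Krt78 started 20.7 kb before it and Krt8 24.5 kb after it. Krt18 started 46.8 kb from the boundary that closed the domain (102075001 to 102080000, score 0.856). That boundary lay in an intron of Eif4b, another translation initiation factor, whose start was 1.23 kb away and the only other start in the domain. At 100 kb this domain was shorter than all but 1.28% of domains. Both genes were read towards the outside of the pair, Krt8 from the minus and Krt18 from the plus strand.

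The partners Krt5 and Krt14, and Krt1 and Krt10, lay on different chromosomes. Krt5 shared its domain with 7 other members, Krt14 with 14, Krt1 with 8 and Krt10 with 3. None of the 9 epithelial keratins looked up by name (Krt1, Krt5, Krt8, Krt10, Krt14, Krt15, Krt17, Krt18 and Krt19) started within 10 kb of a boundary. The upper bound of that share was 33.6% (Clopper-Pearson 95%), and the share of all protein-coding genes, 16.4%, lay inside the interval. Krt10 was the closest, at 14.4 kb, and the median was 54.0 kb, against 55.3 kb over all protein-coding genes.

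**Figure D2:**
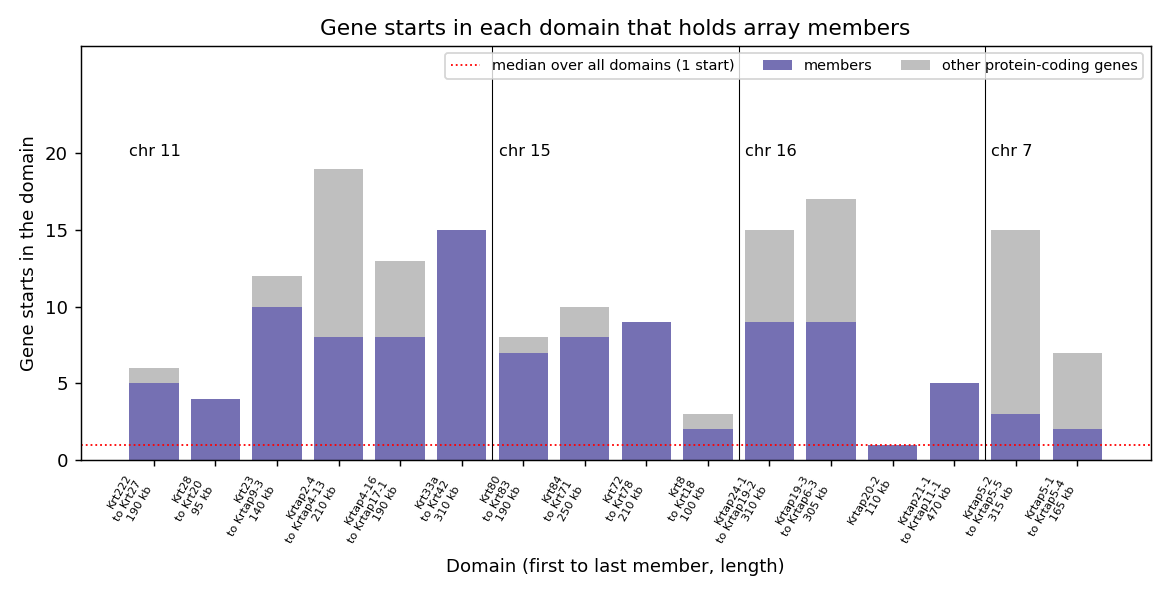
Protein-coding gene starts in each of the 16 domains that hold array members, with members in purple and other genes in grey and the length in kb under each bar. The domains of Krt33a to Krt42 and of Krt72 to Krt78 hold 15 and 9 members and no other gene, and that of Krt8 and Krt18 holds 3 starts.

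Across the 4 arrays, 8 of the 16 domains with members held at least 10 protein-coding gene starts, against 5.32% of the 7821 domains of the list. The median domain had 1 start. Tandem arrays are dense by nature, and the members entered this count.

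The chromosome 16 array was made of associated proteins alone. It ran from Krtap24-1 to Krtap11-1 (88610705 to 89571183, 960 kb), with 24 members, 8 from sulfur-rich families and 16 from glycine-tyrosine families. A further 14 protein-coding genes started inside it, all of them carrying predicted or clone-based names. Its GC content was 38.8%, against 44.1% for the chromosome 11 array, 48.2% for that of chromosome 15 and a median of 42.4% over all domains. The 3 boundaries inside it had scores of 0.524, 0.219 and 0.202. They cut the members into groups of 9, 9, 1 and 5, and the largest share was 37.5% (Clopper-Pearson 95% interval 18.8 to 59.4%).

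The first boundary (88875001 to 88880000, score 0.524) stood in the Krtap19 family, past the step from sulfur-rich to glycine-tyrosine genes. Krtap14, the last sulfur-rich gene before it, started 48.9 kb from the interval. Krtap19-1 and Krtap19-2 started 5.59 and 0.732 kb before the interval. The start of Krtap19-3 lay in the interval, which overlapped its exon with untranslated sequence, and Krtap19-4 started 5.09 kb after it. The first domain thus held 7 sulfur-rich genes and 2 of the Krtap19 family, and the second 9 glycine-tyrosine genes, from Krtap19-3 to Krtap6-3. Krtap19-2 and Krtap19-3 were 3.77 kb apart, the shortest of the 23 distances between neighbours in the array. With boundaries at or above the median score only, no boundary was left inside and all 24 members shared a domain.

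These 4 genes of one family start on either side of the boundary's middle, so the 120 bases before their RefSeq starts are shown (GRCm38.p6, chromosome 16, minus strand, 88869411 to 88869530, 88874270 to 88874389, 88878039 to 88878158 and 88885090 to 88885209), with the match to TATANA in capitals.
Krtap19-1: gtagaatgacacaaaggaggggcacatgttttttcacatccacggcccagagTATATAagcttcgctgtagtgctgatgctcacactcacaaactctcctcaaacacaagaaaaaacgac
Krtap19-2: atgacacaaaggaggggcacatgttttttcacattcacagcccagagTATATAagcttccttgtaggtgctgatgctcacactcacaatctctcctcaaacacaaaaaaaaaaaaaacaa
Krtap19-3: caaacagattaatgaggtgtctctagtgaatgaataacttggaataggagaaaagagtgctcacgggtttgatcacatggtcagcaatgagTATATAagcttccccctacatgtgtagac
Krtap19-4: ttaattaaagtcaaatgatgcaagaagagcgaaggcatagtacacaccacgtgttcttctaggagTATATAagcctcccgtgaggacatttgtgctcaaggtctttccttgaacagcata
In the order shown, the matches begin 68, 73, 29 and 55 bases before the RefSeq starts. Krtap19-1 and Krtap19-2, both before the interval, shared 88.3% of the 120 bases. The other 5 pairs shared 38.3 to 51.7%.

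The same TATA-like letters lay before most genes of associated proteins that had a promoter entry. The letters were chosen after sequences had been seen, so the count is a description and not a test. RefSeq promoters (GRCm38.p6) were matched for 51 of the 57 genes, and 49 of these (96.1%, Clopper-Pearson 95% interval 86.5 to 99.5%) held TATANA on the gene's strand in the 100 bases before the start. The interval takes genes as independent, although many are related copies, and is therefore too narrow. Over 26794 genes with a promoter, a set not restricted to protein-coding genes, the share was 8.30%. All 16 matched glycine-tyrosine genes and 33 of 35 sulfur-rich genes had it. For keratins only 36 of 53 genes (67.9%) had an entry, and 20 of these held the letters (55.6%). With so few genes matched, that share is void as a description of the keratins.

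The rest of the chromosome 16 array was cut only near the lower limit of the list. The boundaries at 89180001 to 89185000 and 89290001 to 89295000 had scores of 0.219 and 0.202, and no more than 5.29% and 0.548% of the list scored as low. Between them Krtap20-2 lay alone in a domain of 110 kb, 20.9 kb from the first. The last domain, of 470 kb, held Krtap21-1, Krtap6-2, Krtap8-1, Krtap7-1 and Krtap11-1. Krtap7-1 started 213 kb from the nearest boundary, the farthest of all members. The enclosing boundaries were unlike, with a score of 0.206 on the left, 1.82 kb from the start of the claudin gene Cldn8, and 0.955 on the right, 189 kb beyond Krtap11-1.

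The Krtap5 genes of chromosome 7 formed the smallest array (142174535 to 142304594, 130 kb). Its 5 members are sulfur-rich, and 5 predicted genes lay between them. A boundary with a score of 1.30 (142285001 to 142290000), outside protein-coding genes, separated Krtap5-2, Krtap5-3 and Krtap5-5 from Krtap5-1 and Krtap5-4. Krtap5-1 started 7.12 kb from it and Krtap5-5 55.0 kb. It was stronger than the boundaries that enclosed the array, which scored 0.375 and 0.225 and lay 200 kb before and 145 kb after it. The first overlapped the kinase gene Brsk2, whose start was 20.3 kb away, and the second lay 5.81 kb from the start of Lsp1.

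The 5 members outside arrays lay in domains crowded with other genes. Krtap28-10 and Krtap28-13 on chromosome 1 shared a domain of 355 kb and 16 gene starts between boundaries of 0.598 and 0.615, at 32.5 and 14.1 kb from the second. Krtap12-1, Krtap10-4 and Krtap10-10 on chromosome 10 shared one of 340 kb and 25 starts between scores of 0.2 and 0.730, and started 95.6 to 133 kb from a boundary.

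Over all 110 members, 10 (9.09%, Clopper-Pearson 95% interval 4.45 to 16.1%) started within 10 kb of a boundary, against 16.4% of all protein-coding genes. They were Krt28, Krt33a, Krtap9-3 (6.90 kb), Krtap2-4 (4.85 kb), Krtap4-13 (5.11 kb), Krtap19-1, Krtap19-2, Krtap19-3, Krtap19-4 and Krtap5-1. Only 6 boundaries lay next to these 10 genes, and 4 of the genes shared the one in the Krtap19 family. The interval takes genes as independent and is therefore too narrow. On chromosomes 11, 15 and 16, which held 100 of the members, the shares of all protein-coding genes were 19.5, 19.5 and 19.6%. Near strong boundaries there were 6 members, against 10.6% of all genes, and 2 starts lay in an interval, against 5.07%. The last gene inside the limit was Krtap5-1 at 7.12 kb and the first outside it Krtap17-1 at 11 kb. Within 50 kb there were 56 members, against 46.3% of all genes.

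By class, 2 of 53 keratins (3.77%) and 8 of 57 associated proteins (14.0%) started within 10 kb, with overlapping intervals of 0.460 to 13.0% and 6.26 to 25.8%. Both keratins were hair or root sheath genes of type I, 2 of 13. No type II keratin was among them (0 of 10 hair or root sheath genes, with an upper bound of 30.8%, and 0 of 15 others, with one of 21.8%), nor any of the 15 other type I keratins. Of the associated proteins, 4 of 17 glycine-tyrosine genes and 4 of 40 sulfur-rich genes were near. Krtap16-1 of chromosome 11 was placed among the glycine-tyrosine genes by its family number alone. The median distance to a boundary was 48.5 kb for all members (quartiles 23.6 and 83.4 kb) and 55.3 kb for all protein-coding genes (21.4 and 102 kb). The arrays of chromosomes 11, 15 and 16 had medians of 39.5, 47.5 and 89.4 kb. All protein-coding genes of these chromosomes had medians of 41.2, 48.2 and 56.3 kb. Among the classes the median was shortest for the hair or root sheath genes of type II, at 31.5 kb, and longest for glycine-tyrosine genes, at 82.9 kb, whose distances ran from 0 to 213 kb.

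**Figure D3:**
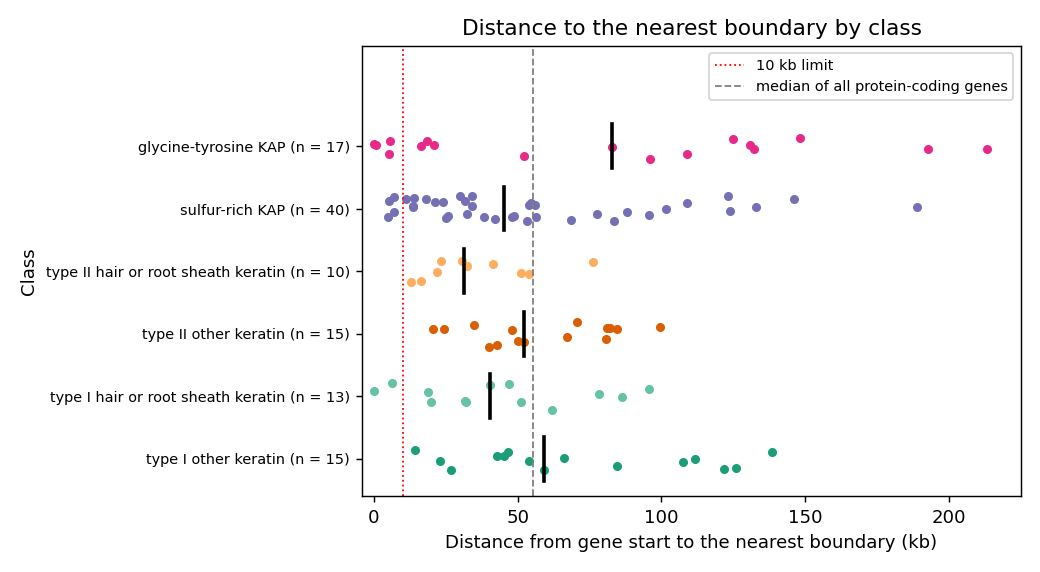
Distance in kb from each member's start to the nearest boundary, 1 point a gene, by class (KAP standing for keratin-associated protein), with the class median as a black bar, the 10 kb limit dotted and the median of all protein-coding genes, 55.3 kb, dashed. Points left of the limit are 2 type I hair or root sheath keratins and 8 associated proteins.

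Of the 12 boundaries inside the arrays, 5 overlapped a protein-coding gene, and 2 of these genes were members, Krt28 and Krtap19-3. The distance between the neighbouring member starts on either side of a boundary had a median of 42.5 kb, against 16.2 kb for the 89 pairs with none, and a longer stretch has more room for a boundary. The longest stretch of chromosome 11, 115 kb from Krtap4-6 to Krtap4-8, and that of chromosome 15, 106 kb from Krt75 to Krt6b, held no boundary, while the longest of chromosome 16, 198 kb from Krtap20-2 to Krtap21-1, held one.

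At these counts no array was detectably denser in boundaries than its chromosome. There were 4.82 boundaries per Mb in the chromosome 11 array (exact Poisson 95% interval 1.57 to 11.3), against 3.76 on the chromosome, and 4.38 (0.904 to 12.8) against 3.11 on chromosome 15. On chromosome 16 there were 3.12 (0.644 to 9.13) against 2.95, and on chromosome 7, from a single boundary, 7.69 (0.195 to 42.8) against 3.11. The intervals cover counting error only.

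**Figure D4:**
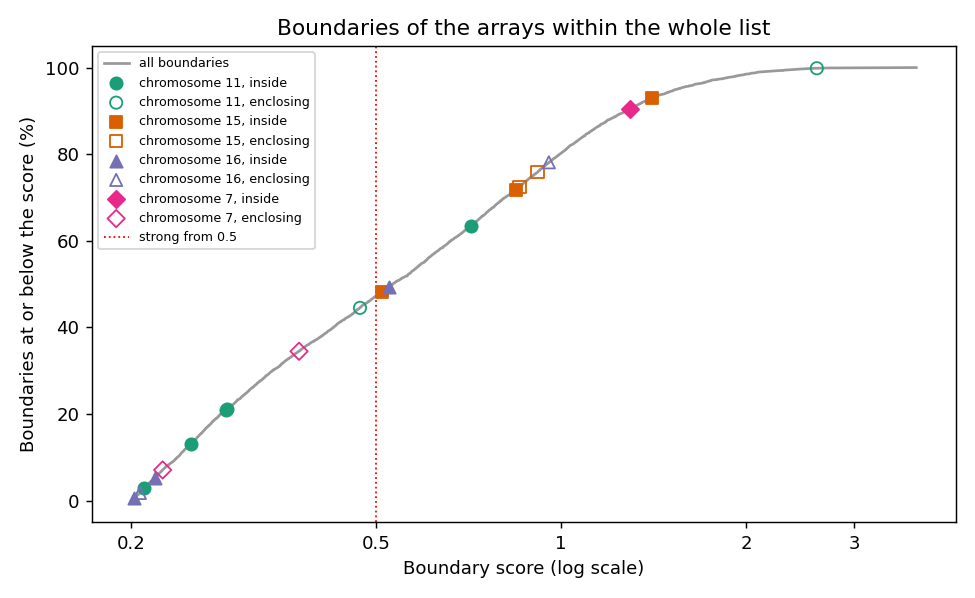
Percent of all 7841 boundaries at or below each score (grey line, log scale), with the 12 boundaries inside the arrays filled and the 8 enclosing ones open, by chromosome. The chromosome 11 and 16 arrays hold 6 filled points below 0.5, and those of chromosomes 15 and 7 none.

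CTCF, the zinc finger protein that halts cohesin, is known to bind at many boundaries, so the core of its site was searched on both strands, written as CCA, any 2 bases, AG, any 2 bases and GGC. The letters were in 2 of the 12 intervals inside the arrays and in 3 of the 8 enclosing ones, against 32.8% of all boundary intervals and 22.4% of all 5 kb bins. In intervals widened by 10 kb on each side they were in 11 and 7, against 77.1% of all boundary intervals so widened. The share over stretches of that length away from boundaries was not counted. Both matched intervals inside the arrays were on chromosome 15, those between Krt83 and Krt84 and between Krt78 and Krt8. The strongest of the enclosing boundaries, at Eif1, had none in its interval but 7 in the interval widened by 10 kb on each side. All 6 matches to the core on chromosome 15 are shown with the bases around them and the core in capitals. These matches belong to boundaries that split the type II genes or set off Krt8 and Krt18. They lie on chromosome 15 of GRCm38.p6 at 101519943 to 101520002 (plus strand), 101515111 to 101515170 (minus strand), 101977145 to 101977204 (plus strand), and in Eif4b at 102077172 to 102077231, 102078203 to 102078262 and 102078813 to 102078872 (all plus strand).
Krt83 to Krt84, first site: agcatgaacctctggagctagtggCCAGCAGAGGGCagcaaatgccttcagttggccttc
Krt83 to Krt84, second site: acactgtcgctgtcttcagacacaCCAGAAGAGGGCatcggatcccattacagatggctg
Krt78 to Krt8: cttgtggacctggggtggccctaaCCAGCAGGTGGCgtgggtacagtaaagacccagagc
Eif4b, first site: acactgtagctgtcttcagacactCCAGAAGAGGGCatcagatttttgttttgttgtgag
Eif4b, second site: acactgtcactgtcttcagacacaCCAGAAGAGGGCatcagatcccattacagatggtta
Eif4b, last site: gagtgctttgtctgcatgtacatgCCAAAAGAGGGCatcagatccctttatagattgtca
The second site of Krt83 to Krt84 shared 93.3% of its 60 bases with the second site of Eif4b, 75% with its first and 70% with its last. The 93.3% pair each shared 86.7% with a match in the right enclosing boundary of chromosome 16. The sites between Krt78 and Krt8 and the first of Krt83 to Krt84 shared 40% with each other. Of the matches shown, only these 2 also met the full consensus of the CTCF site. Those in Eif4b and the second of Krt83 to Krt84 held the core alone, and shared 60 to 93.3% with each other. The share of unique sequence was 73.6% in the Krt83 to Krt84 interval and 95.6% in that of Eif4b. CTCF binding at these matches was not tested.

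Genes that work with keratins were looked up in the same way. Of 22 partner genes, which encode desmosome and envelope proteins and regulators of skin and hair, 1 started within 10 kb of a boundary (4.55%, Clopper-Pearson 95% interval 0.115 to 22.8%), and the share of all genes lay inside that interval. This was Klf4, a factor of the skin barrier, 2.54 kb from the nearest boundary, which scored 0.653. Pkp3, a plakophilin, followed at 13.2 kb (0.915), the filaggrin gene Flg at 21.5 kb (0.293) and the loricrin gene Lor at 26.9 kb (0.209). Trp63, the master factor of basal cells, was the farthest, at 276 kb. Hoxc13, a regulator of hair keratins, was 161 kb from the nearest boundary, which scored 1.27, and the median over the 22 was 66.9 kb.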

How the data were processed

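Per the labels, in situ Hi-C with DpnII was done on 2 samples of 1 group. Contacts of both were combined on GRCm38 (build per the submitters' processing notes) and boundaries were called on the combined matrix, per the series' design text. Which caller was used, and with what cutoffs, is not stated in the labels or the file. The deposited score per 5 kb interval is the authors' own, and it was used only to describe and rank boundaries within this list. Pooling means that replicate spread and depth are unknown here, so no test was run. The list has 7841 intervals on chromosomes 1 to 19 and X.

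Members were protein-coding genes of GENCODE M21 named Krt or Krtap followed by a digit. Runs of at least 5 with gaps of at most 500 kb formed arrays. Domains ran from middle to middle of neighbouring intervals, and genes were placed by the 5′ end of their model. Sequence came from GRCm38.p6, the same build. Uniqueness means the percent of 50-base words, sampled at 1 in 32, found a single time in the reference. Distances and domain counts were checked on simulated data. Shares carry Clopper-Pearson 95% intervals, limited to counting error, with genes taken as independent. Python 3.11.15, pandas 2.3.3 and SciPy 1.17.1 were used.

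Members and lists were chosen with earlier results of these data known. The motifs were chosen after sequences had been seen. Genes named with values were those within 10 kb of a boundary, the first, last and farthest member of each array, the neighbours of each boundary, members outside arrays, 9 epithelial keratins, the genes nearest enclosing boundaries and 22 partner genes. Krt40, Krtap3-3, Krtap14 and the ends of the longest stretches between members fall outside this rule and were chosen after their values were seen.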

Additional observations from a re-analysis of the deposited data

How the results depend on the processing

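The list is one pooled call, so leaving out a replicate was not possible. No paired analysis was possible because the result comes from no test and both samples belong to 1 group. Array gaps of 250 or 1000 kb, members placed by the middle of the gene, gene 3′ ends and mostly unique sequence moved no result beyond its interval or 1.5 times its count, and neighbours were never within 50 kb, so merging changed nothing. Placed by its middle, Krt28 moved from the second to the first domain of chromosome 11. Strong boundaries alone gave 6 near members, a median distance of 96.4 kb, 1 boundary inside and 2 domains for the chromosome 11 array (largest share 70.0%) and the same counts for chromosome 16 (62.5%). Chromosome 15 did not change. At or above the median score there were 2 near members, a median distance of 181 kb and a median score inside of 1.07. Chromosome 11 then had 1 boundary and 2 domains (70.0%), chromosome 16 had 0 and 1 (100%), and the largest share of chromosome 15 was 65.4%. Intervals widened by 0, 25 and 50 kb gave 2, 30 and 56 near members, against 5.07, 27.8 and 46.3% of all genes, and keratins alone gave 2 of 53. Depth is unknown, so weak boundaries of low score cannot be judged by it.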
